A study of Mus musculus with 20 samples.

Results

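The genes described here encode the proteasome, its assembly factors and its regulators. They are the protein-coding genes of the deposited table whose symbols start with Psma to Psmg followed by a digit, without the immunoproteasome genes Psmb8, Psmb9 and Psmb10. The pattern matched 50 genes and the exception removed 3, which left 47 genes of the 21769 in the table. Each gene is represented by its transcript with the highest count over the 10 input libraries. By known role the genes comprise 8 alpha-ring and 8 beta-ring subunits of the 20S core particle, 6 ATPases and 11 non-ATPase subunits of the 19S regulatory particle, 7 assembly chaperones and 6 activators or inhibitors. The remaining gene, Psmc3ip, matches the symbol pattern but encodes a meiotic recombination factor and is no proteasome subunit. The libraries came from livers of wild-type (WT) mice that drank water with CdCl2, a soluble cadmium salt, at 100 mg/L for 9 months (3 libraries) or 3 months (3 libraries), and from control livers at 9 months (2 libraries) and 3 months (2 libraries). They are the input libraries of a study that sequenced RNA with N6-methyladenosine (m6A), made without the antibody pull-down, and measure RNA abundance. The pull-down libraries were not analysed here. The labels do not give strain, sex or age at the start. Nor do they tie a library to its own animal, so the p values rest on a spread between libraries that may be technical.

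The 26S proteasome degrades proteins that carry ubiquitin chains. Its 20S core is a barrel of stacked rings, with the peptide-cutting sites on the beta subunits Psmb5, Psmb6 and Psmb7, and its 19S particle binds, deubiquitinates, unfolds and feeds in the substrate. In mammalian cells the transcription factor NRF1 (Nfe2l1) raises many of these genes together when proteasome activity is blocked, through antioxidant response elements in their promoters. Interferon gamma induces immune variants of the cutting subunits and the activator PA28, which Psme1 and Psme2 encode. Cadmium binds protein thiols and causes protein misfolding in cells, and the liver is one of the organs in which it accumulates.

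The gene-level count totals were 3958171 to 8912898 per library. Counts were fitted with edgeR's quasi-likelihood test over all 10 libraries, p values were adjusted by Benjamini-Hochberg over the 14067 genes that passed the filter on low counts, and CPM are counts scaled to 1000000 of the TMM-adjusted library size. Of the 47 genes, 45 passed the filter. Psmb11, the thymus-specific beta subunit, with 4 counts over all libraries, and Psme2b, a near-identical copy of Psme2, with 30 counts, did not. Albumin and the other 7 hepatocyte markers were detected in every library (54321 to 110305 CPM summed). The 3-month controls differed most from the other libraries, with a median correlation of log2 CPM of 0.810 for control 2 and 0.788 for control 3 over 7545 genes with at least 10 CPM, against 0.866 to 0.927 for each other library. Across the 45 proteasome genes, the log2 CPM of 3-month control 2 had a median correlation of 0.821 with the other libraries, against 0.919 to 0.961 for each other library, and the genes are not independent replicates. RNA of 11 pancreatic enzyme genes summed to 9115 CPM in 9-month control 2 and 1771 CPM in 9-month exposed liver 1, against 8.55 to 238 CPM elsewhere, and its part in the results was not tested. In whole liver, fewer cells of a type and less RNA per cell cannot be told apart.

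Levels of different genes were compared per length, in TPM, transcripts scaled to 1000000 per library, averaged over the 10 libraries. The 20S core subunits held the top of the range. Psma6, an alpha subunit, averaged 131 ± 24.3 TPM (SD, n = 10), Psmb1, a beta subunit, 110 ± 14.5 TPM, Psma5 108 ± 26.6 TPM and Psma1 103 ± 18.2 TPM. The lowest of the 14 constitutive core subunits was Psma7 at 19.2 ± 4.14 TPM. All levels are those of the kept transcript. The second transcript had 99.6% of the kept one's count for Psma7 and 99.2% for Psma3, while Psma1, Psma5 and Psmb1 had 1 transcript. How reads were shared between transcripts is not known, so the order of the genes holds for the kept transcripts only. Psma8, a testis-specific alpha subunit, averaged 0.501 TPM and was listed at 0 in 6 libraries. Among the 19S ATPases the level was highest for Psmc6 (49.3 ± 24.5 TPM) and lowest for Psmc5 (11.9 ± 7.1 TPM). Among the non-ATPase subunits it was highest for Psmd6 (51.0 ± 11.3 TPM) and Psmd13 (46.9 ± 10.2 TPM) and lowest for Psmd7 (13.1 ± 3.66 TPM). The assembly chaperones lay at or below the level of Psmg1, which helps to build the alpha ring and averaged 17.4 ± 6.45 TPM. Psmg4 and Psmd10, further chaperones, averaged 3.49 ± 1.94 and 2.91 ± 1.5 TPM. Psme1 reached 33.0 ± 14.8 TPM, Psme4, which encodes the activator PA200, 25.2 ± 8.1 TPM, and Psmf1, which encodes the inhibitor PI31, 3.54 ± 1.56 TPM. A TPM also depends on the other RNA in a library, in which a lone transcript took 141373 to 322717 TPM, so TPM were not used to compare groups.

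**Figure D1:**
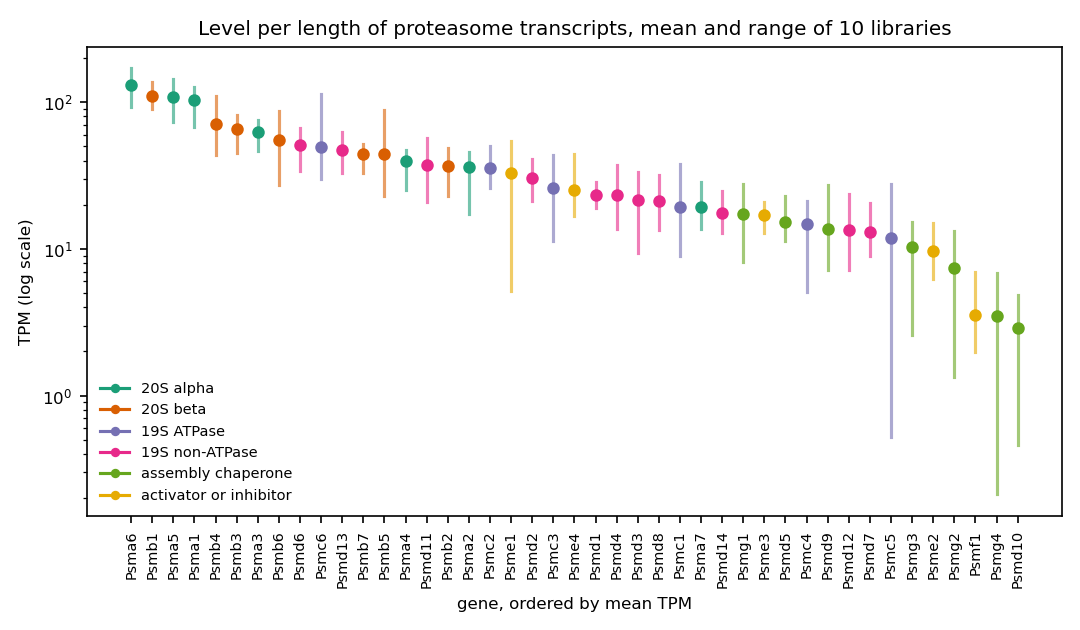
Mean level of 43 proteasome genes in TPM on a log scale (points) with the range over the 10 input libraries (bars), ordered by mean and coloured by role. The core subunits Psma6, Psmb1, Psma5 and Psma1 lie above 100 TPM, and Psmf1, Psmg4 and Psmd10 lie below 5 TPM.

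The median variation between libraries was smaller for these genes than for other genes of similar level, as a description with no test. Over the 40 genes with a mean of at least 10 CPM, the median coefficient of variation across the 10 libraries was 25.6%, against 33.4% over 7505 other genes at that level. It was 27.1% (n = 32) against 34.3% (n = 5960) from 10 to 100 CPM, and 20.8% (n = 8) against 29.1% (n = 1545) above 100 CPM. The smallest values belonged to Psmb1 (13.3%), to Psme3, which encodes the nuclear activator PA28 gamma (14.0%), and to the 19S scaffold subunit Psmd1 (14.5%). The largest among these 40 belonged to the ATPases Psmc5 (58.4%) and Psmc6 (50.9%) and to Psmf1, the gene of the proteasome inhibitor PI31 (47.4%). Summed over the 47 genes, the level was 2818 ± 249 CPM in exposed livers (SD, n = 3) and 2842 ± 320 CPM in controls (n = 2) at 9 months, and 3004 ± 443 CPM in exposed livers (n = 3) and 2792 ± 180 CPM in controls (n = 2) at 3 months. The 4 group means of the sum lay within 1 SD of the mean of exposed livers at 3 months.

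The 14 core subunits summed to 1216, 1378 and 1424 CPM in exposed livers and 1188 and 1444 CPM in controls at 9 months. At 3 months they summed to 1667, 1515 and 1222 CPM in exposed livers and 1194 and 1117 CPM in controls. The exposed livers and controls overlapped at 9 months, and at 3 months the lowest exposed liver lay just above both controls. Within a library the genes did not all lean one way: of the 44 genes with a mean of at least 1 CPM, 3-month control 2 was the lowest of the 10 libraries for 13 and the highest for 8. Exposed liver 1 at 3 months was the highest for 11 and the lowest for 0, and exposed liver 3 at 3 months was the lowest for 10 and the highest for 1.

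**Figure D2:**
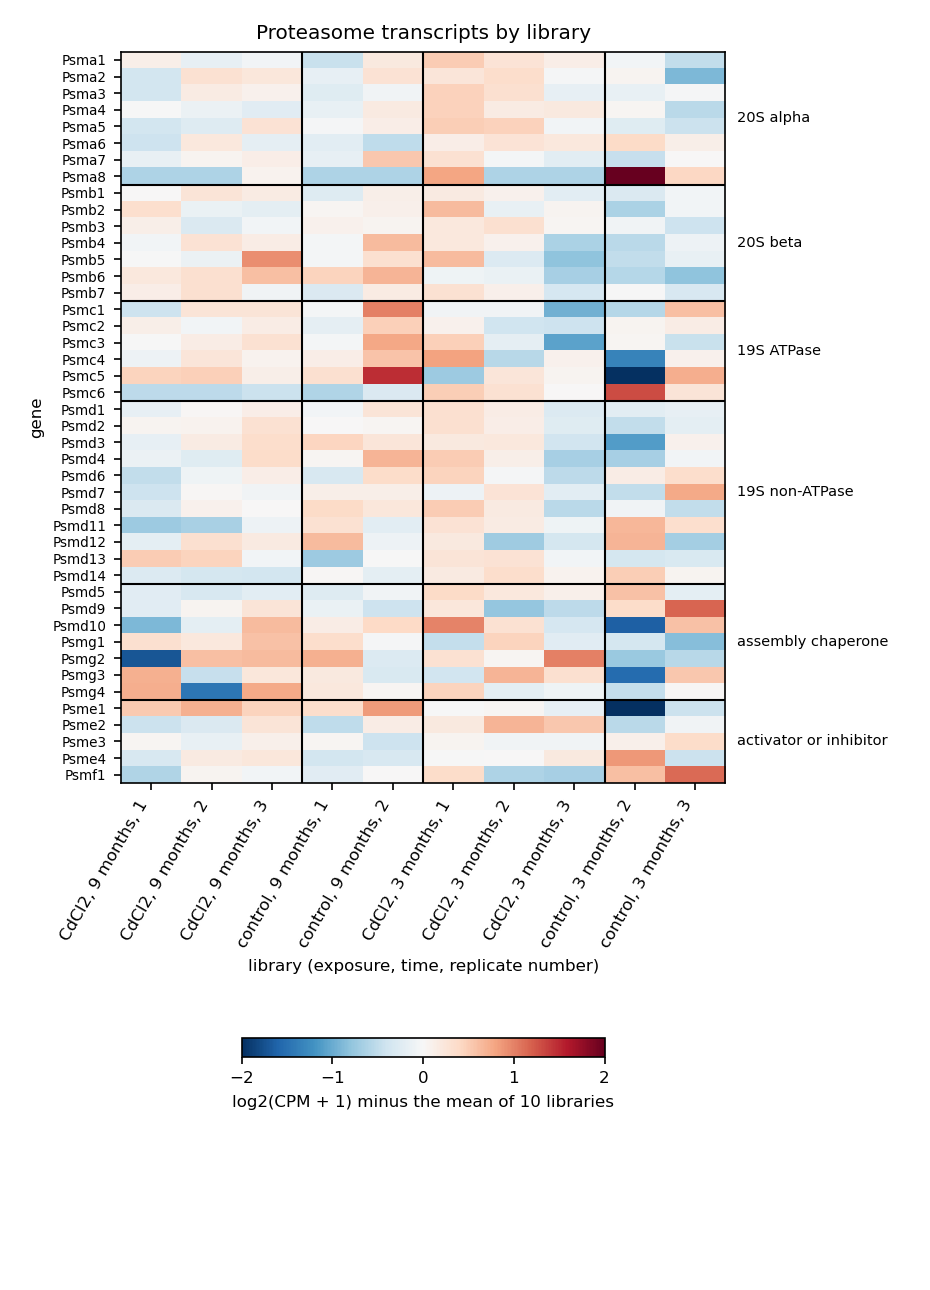
Deviation of log2(CPM + 1) from the mean of the 10 libraries for 44 proteasome genes (rows, by role) in each library (columns). Psmc5 and Psme1 are far below their mean in 3-month control 2, Psmc6 is above its mean in all 5 libraries at 3 months, and Psmb6 is above its mean in all 5 libraries at 9 months.

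The effect of cadmium after 9 months was compared in 3 exposed livers and 2 controls. None of the 45 genes passed an adjusted p of 0.05 in edgeR's quasi-likelihood test, in which 0 of all 14067 genes passed (0%), and 0 of the 45 and 316 of all genes (2.25%) had an unadjusted p under 0.05. DESeq2 called 0 of the 45 and 7 of all genes with an adjusted p (0.0499%). The log2 fold change was above 0 for 17 of the 45 genes, against 50.7% of all genes, and its median was -0.11, against 0.01 over all genes. By role the median was 0.03 for the alpha subunits (5 of 8 above 0), -0.04 for the beta subunits (3 of 7), -0.29 for the ATPases (0 of 6), -0.21 for the non-ATPase subunits (2 of 11), 0.21 for the chaperones (4 of 7) and 0.01 for the activators and inhibitors (3 of 5). The 2 groups did not overlap for 6 genes, against 22% of all genes: exposed livers were higher for 2 (10.3% of all genes), Psme4 and the 19S scaffold subunit Psmd2, and lower for 4 (11.8% of all genes), the lid subunits Psmd7, Psmd8 and Psmd14 and the sparsely counted Psmc3ip. The 95% interval of the fold change lay within 2-fold either way for 24 of the 45 genes. The sign of the median over the 45 genes turned without 9-month control 2, the library richest in pancreatic RNA, to 0.064. Without both pancreas-rich libraries it was 0.13.

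The largest fold changes at 9 months among genes above 1 CPM were those of Psmc5, Psmd13, Psmd11 and Psmc1, beside the sparse Psma8. Psmd13, a 19S lid subunit, had 129, 124 and 87.9 CPM in exposed livers and 54.8 and 90.7 CPM in controls, a log2 fold change of 0.64 ± 0.30 (SE), with 1 control inside the range of the exposed livers. Psmd11, another lid subunit, had 77.2, 81.4 and 119.7 CPM in exposed livers and 159 and 110.5 CPM in controls, a log2 fold change of -0.54 ± 0.29, and the groups overlapped. The ATPase Psmc5 had 20.9, 21.5 and 16.5 CPM in exposed livers and 19.02 and 43.6 CPM in controls. Its log2 fold change was -0.68 ± 0.78, and 0.035 without control 2. The ATPase Psmc1, with 25.6, 40.9 and 40.9 CPM in exposed livers and 33.4 and 69.9 CPM in controls, gave -0.53 ± 0.44 and was 0.088 without the same library. Each had an adjusted p of 1. The testis gene Psma8 had 3 counts in exposed livers, all in liver 3, and 0 counts in controls, so no fold is given.

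After 3 months, again in 3 exposed livers and 2 controls, 0 of the 45 genes passed the threshold, against 7 of all genes (0.0498%), and the smallest adjusted p of a proteasome gene was 0.187 (Psmd9). An unadjusted p under 0.05 was found for 4 of the 45 genes and for 14.5% of all genes. Of the genes with an adjusted p in DESeq2, it called 0 of 44 proteasome genes and 479 of all 12940 (3.7%). The log2 fold change was above 0 for 30 of the 45, against 50.6% of all genes, with a median of 0.29, against 0.01 over all genes. The alpha subunits had a median of 0.41 (6 of 8 above 0) and the beta subunits 0.29 (7 of 7), while the ATPases had -0.13 (3 of 6), the non-ATPase subunits 0.28 (6 of 11), the chaperones 0.44 (5 of 7) and the activators and inhibitors -0.27 (2 of 5). Groups did not overlap for 12 of the 45 genes and for 25.8% of all genes. Exposed livers were the higher group for 8 (13.9% of all genes), Psma1, Psma4, Psma5, Psmb3, Psmd13, Psme1, Psme2 and Psmg2, and the lower group for 4 (11.9% of all genes), Psmd9, Psmd11, Psme3 and Psmf1. The 95% interval lay within 2-fold for 13 of the 45 genes, and for the others it reached 2-fold in at least one direction.

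Psma5, an alpha subunit, had 229.8, 224 and 157 CPM in exposed livers and 137 and 121 CPM in controls at 3 months, a log2 fold change of 0.66 ± 0.30 (adjusted p = 0.335). Psmd9, a chaperone of the 19S base, had 49.8, 24.1 and 29.2 CPM in exposed livers and 54.8 and 95.6 CPM in controls, a log2 fold change of -1.13 ± 0.35. Psmf1, the gene of the inhibitor PI31, had 19.3, 9.28 and 9.03 CPM in exposed livers and 23.0 and 33.7 CPM in controls, a log2 fold change of -1.18 ± 0.45 (adjusted p = 0.267). For Psmd9 and Psmf1 the exposed livers lay below both controls, with exposed liver 1 nearest to them. Psmg2, which pairs with Psmg1 in an alpha-ring chaperone, had 10.6, 8.73 and 17.9 CPM in exposed livers and 4.64 and 5.39 CPM in controls, a log2 fold change of 1.30 ± 0.76 (adjusted p = 0.446). Psme1, an activator subunit, had 35.2, 36.4 and 31.7 CPM in exposed livers and 6.33 and 26.03 CPM in controls, a log2 fold change of 1.07 ± 0.45 (adjusted p = 0.305). Its partner Psme2 had 15.7, 22.5 and 20.1 CPM in exposed livers and 9.07 and 12.9 CPM in controls, a log2 fold change of 0.82 ± 0.46, and its reads may be shared with the copy Psme2b. The exposed livers were close together for Psme1, while the controls were far apart. Psma8 had 11, 0 and 0 counts in exposed livers and 36 and 9 counts in controls.

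Which 3-month control was kept decided the calls at 3 months. Without control 2, Psmd9 passed the threshold (log2 fold change -1.47, adjusted p = 0.0241) and Psme1 had 0.41. Without control 3, Psmc5, Psmc6 and Psme1 passed, with 2.44 for Psme1 (adjusted p = 0.00492), and Psmd9 had -0.67. The genes called with either control left out were therefore different ones, 1 and 3 in number, and 720 and 1247 of all genes were then called. The called share of proteasome genes was 2.17% and 6.67% in these fits, against 4.62% and 8.16% of all genes. The median over the 45 genes was 0.12 to 0.44 with each library left out, the lowest without exposed liver 1 at 3 months.

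**Figure D3:**
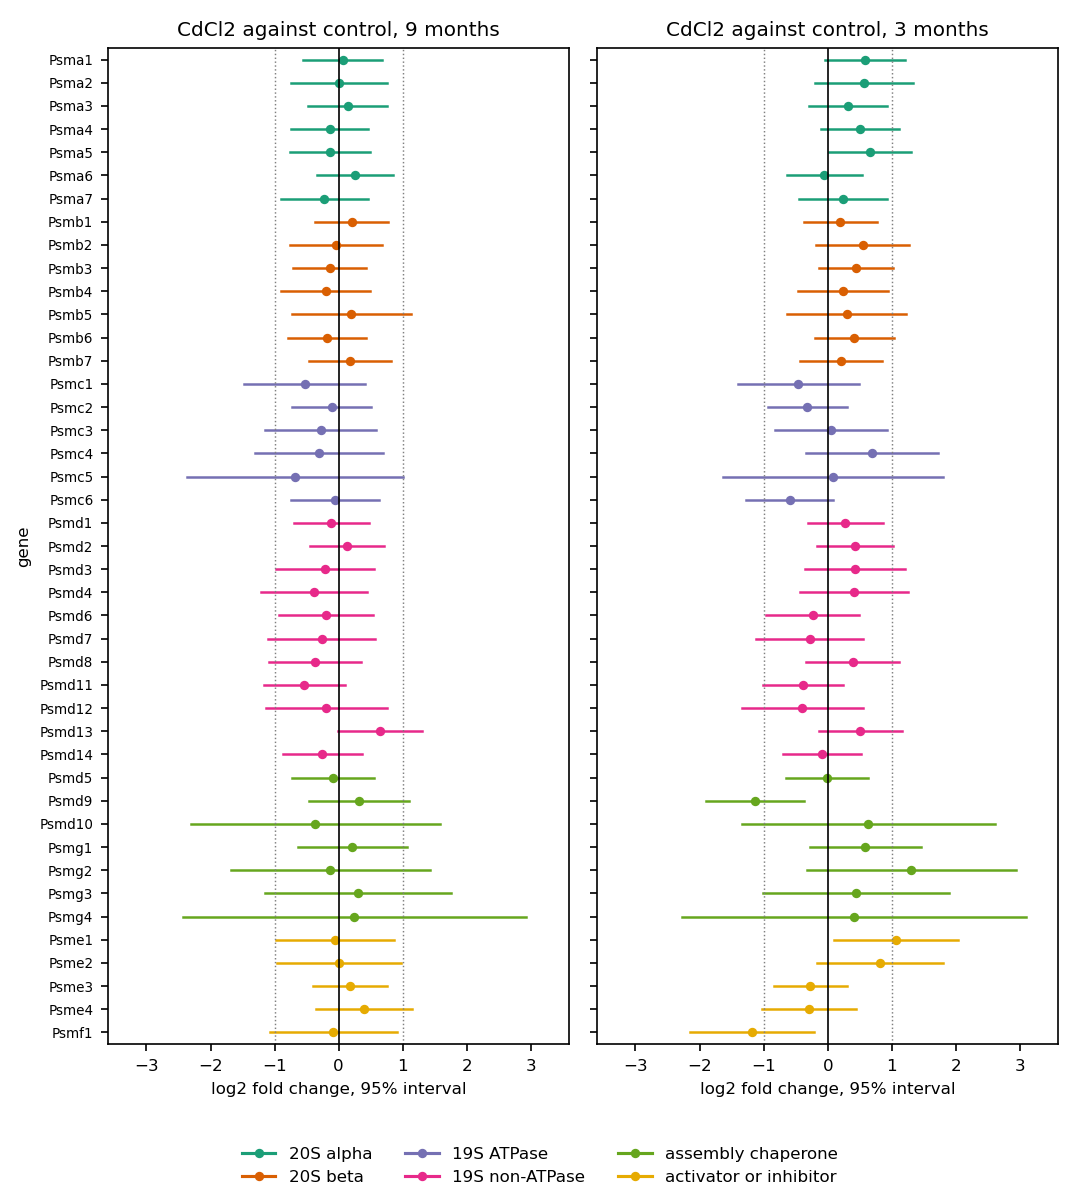
Log2 fold change, cadmium-exposed against control livers, with its 95% interval, for 43 proteasome genes at 9 months (left) and 3 months (right), coloured by role. Dotted lines mark 2-fold either way. The beta subunits lie between -0.20 and 0.21 at 9 months and between 0.20 and 0.55 at 3 months, and most intervals include 0.

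The difference between the cadmium effects, 9 minus 3 months, was tested directly, and 0 of the 45 proteasome genes and 0 of all 14067 genes (0%) passed. An unadjusted p under 0.05 was found for 2 of the 45, Psmd9 and Psmc3ip, and for 9.42% of all genes. Of the genes with an adjusted p in DESeq2, it called 0 of 44 proteasome genes and 40 of all 13212 (0.303%). The difference was above 0 for 13 of the 45 genes, against 48.9% of all genes, and its median was -0.30, against -0.03. The median was -0.50 without exposed liver 3 at 9 months, -0.18 without 9-month control 2 and -0.13 without both pancreas-rich libraries. It was 1.45 ± 0.51 for Psmd9 (adjusted p = 0.459), -1.44 ± 1.03 for Psmg2, -1.13 ± 0.61 for Psme1 and 1.09 ± 0.65 for Psmf1. The 95% interval lay within 2-fold for 3 of the 45 genes. Averaged over both times, a comparison added after the values were seen, 30 of the 45 genes lay above 0, against 51.3% of all genes, and groups did not overlap for 0 of the 45 and 1.22% of all genes. There cadmium gave 0 calls among the 45 genes and 9 among all genes (0.064%). DESeq2 gave 0 among the 43 proteasome genes and 117 among the 12394 genes that had an adjusted p (0.944%). Psmd13 had 0.58 ± 0.21 (adjusted p = 0.521) and Psmd11 -0.46 ± 0.21, and these were the 2 of the 45 with an unadjusted p under 0.05, against 8.35% of all genes.

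In the main edgeR fit over all 10 libraries, with the filter on low counts, proteasome genes passed only in a comparison of times added after the values were seen. There the comparisons of times within controls and within exposed livers, which were part of the design, gave 0 calls among the 45 genes. Without that filter the comparison within controls gave 3 calls among 47 genes (6.38%, against 5.12% of all genes). In the added comparison, the mean of exposed and control livers, 9 against 3 months gave 2 calls among the 45 genes (4.44%) and 362 among all genes (2.57%). Of the 45, 1 was higher (1.2% of all genes) and 1 lower (1.37% of all genes). An unadjusted p under 0.05 was found for 9 of the 45 (20%) and 20.1% of all genes, and 27 of the 45 lay above 0, against 52.4% of all genes. Age, any separate collection or sequencing round and, in exposed livers, the length of exposure go with time and cannot be told apart. At 9 months Psmb6, which encodes the caspase-like beta 1 subunit, was higher by 0.97 ± 0.20 on the log2 scale (adjusted p = 0.0323). Psmc6, which encodes a 19S ATPase, was lower by 1.05 ± 0.23 (adjusted p = 0.0345). Psmb6 had 77.5, 84.4 and 102 CPM in exposed livers and 91.3 and 108 CPM in controls at 9 months. At 3 months it had 62.8, 61.3 and 41.7 CPM in exposed livers and 44.9 and 38.1 CPM in controls. All 5 libraries at 9 months lay above all 5 at 3 months. Psmc6 had 62.5, 62.4 and 66.6 CPM in exposed livers and 59.3 and 73.5 CPM in controls at 9 months, and 127, 112 and 90.9 CPM in exposed livers and 224 and 108 CPM in controls at 3 months. It was lower in all 5 libraries at 9 months than in any at 3 months and nearly constant among the exposed livers there. The ratio of Psmb6 to Psmc6 CPM within a library was 1.24, 1.35 and 1.53 in exposed livers and 1.54 and 1.47 in controls at 9 months, against 0.496, 0.547 and 0.459 in exposed livers and 0.201 and 0.352 in controls at 3 months.

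The 2 genes kept their direction under each alternative run, with log2 values of 0.88 to 1.04 for Psmb6 and -1.27 to -0.74 for Psmc6 with each library left out. Their calls were lost with any 1 exposed liver or 9-month control left out (adjusted p = 0.0561 to 0.158 for Psmb6 and 0.0583 to 0.158 for Psmc6) and kept without either 3-month control. They were also lost with counts summed over transcripts, with the replicate number as a block (adjusted p = 0.0791 for Psmb6 and 0.0673 for Psmc6) and without the pancreas-rich pair (adjusted p = 0.289 and 0.304). Of all genes, 4.52% had all libraries of a time beyond all of the other time, as did 4 of the 45. Of these, Psmb6 and Psme1 were higher (2.21% of all genes) and Psmc6 and Psmd14 lower (2.31% of all genes) at 9 months. Psmd14, the 19S deubiquitinase, had 27.9, 26.4 and 26.1 CPM in exposed livers and 34.5 and 29.6 CPM in controls at 9 months. At 3 months it had 38.4, 43.5 and 35.6 CPM in exposed livers and 48.1 and 35.4 CPM in controls, and its log2 fold change for time was -0.46.

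**Figure D4:**
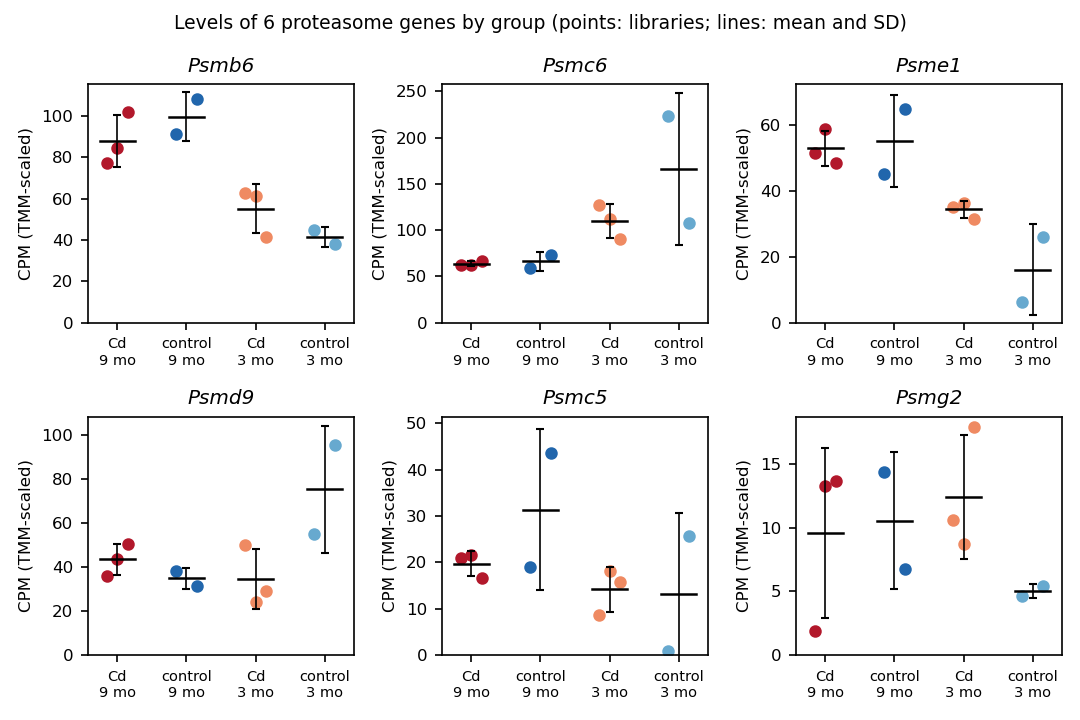
CPM of 6 proteasome genes in each library (points) with the mean and SD of each group (lines), for exposed and control livers at 9 and at 3 months. Psmb6 and Psme1 are higher and Psmc6 lower in all 5 libraries at 9 months than in those at 3 months, and Psmc5 is at 0.843 CPM in 3-month control 2.

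Upstream sequences of Psmb6 and Psmc6, the genes called, and of Psmd9, the proteasome gene with the smallest p for cadmium at 3 months, are shown because NRF1 and NRF2 act through antioxidant response elements. In the deposited table, Psmb6 (gene ID 19175) lies on chromosome 11 from 70525357 to 70527858 and Psmc6 (gene ID 67089) on chromosome 14 from 45329824 to 45349071. The sequences are the 250 bases before the start of each gene on its own strand, from RefSeq (build GRCm38.p6): Psmb6 at chr11:70525107-70525356, Psmc6 at chr14:45329574-45329823 and Psmd9 at chr5:123227940-123228189, all on the plus strand. Capitals mark the match to the core TGACNNNGC, searched on both strands. The match runs along the gene's strand for Psmb6 and Psmd9 and along the opposite strand for Psmc6, and its first base lies 9, 31 and 227 bases before the start for Psmb6, Psmd9 and Psmc6.
Psmb6: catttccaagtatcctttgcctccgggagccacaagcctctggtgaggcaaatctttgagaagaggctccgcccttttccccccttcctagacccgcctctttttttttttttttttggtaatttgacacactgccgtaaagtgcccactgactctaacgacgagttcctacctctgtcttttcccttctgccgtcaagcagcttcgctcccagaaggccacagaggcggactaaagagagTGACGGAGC
Psmc6: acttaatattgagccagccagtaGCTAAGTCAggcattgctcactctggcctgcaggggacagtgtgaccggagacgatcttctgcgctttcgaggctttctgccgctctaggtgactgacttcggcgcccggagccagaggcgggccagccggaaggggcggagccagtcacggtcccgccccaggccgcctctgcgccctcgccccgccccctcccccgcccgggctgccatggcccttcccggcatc
Psmd9: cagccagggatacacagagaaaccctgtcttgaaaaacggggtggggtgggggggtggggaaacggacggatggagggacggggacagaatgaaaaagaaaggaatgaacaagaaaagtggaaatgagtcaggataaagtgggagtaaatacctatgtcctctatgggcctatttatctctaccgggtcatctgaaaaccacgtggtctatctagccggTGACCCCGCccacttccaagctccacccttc

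The match was present in 5 of the 39 proteasome genes with a promoter in the table, namely Psmb5, Psmb6, Psmc6, Psmd9 and Psmd12. These 39 genes had 42 promoters, of which 5 held the match (11.9%), against 10.2% of all 32851 promoters. Of those 5 genes, Psmb6 was higher and Psmc6 lower at 9 months, and Psmb5, Psmd9 and Psmd12 did not pass the test. The GC box GGGCGG was found in 22 of the 42 promoters (52.4%), against 32.7% of all promoters. The core CCGGAAG, which ETS factors bind, was found in 14 of the 42 (33.3%), against 6.91%. The CCAAT box was found in 14 of the 42 (33.3%), against 33.8%. GGGCGG and CCGGAAG were also searched on both strands, as was CCAAT, and a match of letters is a description of the sequence only.

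Within controls, 9 against 3 months gave 0 calls among the 45 genes and 266 among all genes (1.89%), with the smallest adjusted p of 0.0555 for Psmb6. An unadjusted p under 0.05 was found for 5 of the 45 and 20.1% of all genes, and DESeq2 called 3 of the 45, which were Psmb6, Psmc6 and Psme1, and 1238 of all genes. Of the genes with an adjusted p in DESeq2 these were 6.82% and 9.57%. The median was 0.30, against 0.06 over all genes, and 32 of the 45 lay above 0, against 52.1% of all genes. That median was 0.15 to 0.42 with each library left out, the lowest without 9-month control 2, and 0.18 without 3-month control 2. The groups of 2 did not overlap for 25 of the 45 genes and for 46.2% of all genes. The 9-month controls were higher for 17 of them (26.1% of all genes) and lower for 8 (20% of all genes). The log2 fold change was 1.27 ± 0.31 for Psmb6, -1.32 ± 0.35 for Psmc6 (adjusted p = 0.0631) and 1.75 ± 0.49 for Psme1 (adjusted p = 0.0698). Psmc5 gave 1.22 ± 0.88, from 19.02 and 43.6 CPM at 9 months and 0.843 and 25.6 CPM at 3 months, where 3-month control 2 had 4 counts, and was 0.31 without that library. Psma8 had 0 counts in both 9-month controls and 36 and 9 counts at 3 months, in controls 2 and 3. The number of proteasome genes called was 2 without 3-month control 2 (Psmb6 and Psmd9) and 7 without 3-month control 3 (Psmb6, Psmc4, Psmc5, Psmc6, Psmd3, Psme1 and Psme4). These were 4.35% and 15.6% of the proteasome genes tested, against 6.36% and 15.3% of all genes tested in the same fits.

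Within exposed livers, where groups held 3 libraries each, 0 of the 45 genes and 0 of all genes (0%) passed, the smallest adjusted p of a proteasome gene was 0.98, and 3 of the 45 and 4.95% of all genes had an unadjusted p under 0.05. Of the genes with an adjusted p in DESeq2, it called 0 of 43 proteasome genes and 17 of all 11849 (0.143%). The 3 genes with an unadjusted p under 0.05 were Psmb6 (0.67 ± 0.25), Psmc6 (-0.78 ± 0.29) and Psmd11 (-0.60). The median was -0.04, against 0.00 over all genes, 19 of the 45 lay above 0, against 50.3% of all genes, and the alpha subunits lay below 0 for 8 of 8 with a median of -0.33. The median over the 45 genes was -0.13 to 0.10 with each library left out, the highest without exposed liver 1 at 3 months. Groups did not overlap for 8 of the 45 genes, against 14% of all genes. The livers at 9 months were higher for 2 (7.23% of all genes), Psmb6 and Psme1, and lower for 6 (6.76% of all genes), Psma1, Psma4, Psmc6, Psmd5, Psmd11 and Psmd14. The genes highest in TPM among the alpha, beta and non-ATPase subunits are given in every library. Psma6 had 122, 188 and 143 CPM in exposed livers and 141 and 114 CPM in controls at 9 months, and 178, 196 and 189 CPM in exposed livers and 214 and 176 CPM in controls at 3 months. Psmb1 had 145, 172 and 161 CPM in exposed livers and 120.3 and 156 CPM in controls at 9 months, and 163, 152 and 124 CPM in exposed livers and 117 and 138 CPM in controls at 3 months. Psmd6, a lid subunit, had 57.7, 77.1 and 89.9 CPM in exposed livers and 65.7 and 106 CPM in controls at 9 months, and 112, 80.6 and 56.4 CPM in exposed livers and 90.7 and 104 CPM in controls at 3 months. Exposed livers and controls overlapped at each time for Psma6 and Psmb1 and at 9 months for Psmd6. For Psmd6 at 3 months both controls lay within the range of the exposed livers.

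The PA28 subunits Psme1 and Psme2, which form a joint ring, differed in their values with time. Psme1 had 51.5, 58.9 and 48.6 CPM in exposed livers and 45.3 and 65.0 CPM in controls at 9 months, above all libraries at 3 months, with a log2 fold change of 1.19 ± 0.31 in the mean of both arms (adjusted p = 0.0570). That value was 0.86 without 3-month control 2 (adjusted p = 0.0245) and 1.88 without 3-month control 3 (adjusted p = 0.000403). Psme2 had 9.89, 10.9 and 16.5 CPM in exposed livers and 9.29 and 15.2 CPM in controls at 9 months, within the range at 3 months. The ratio of Psme1 to Psme2 CPM was 5.21, 5.41 and 2.94 in exposed livers and 4.88 and 4.26 in controls at 9 months, against 2.24, 1.62 and 1.57 in exposed livers and 0.698 and 2.02 in controls at 3 months. The ratio was higher in all 5 libraries at 9 months. Among the chaperones, Psmg1 had 25.6, 23.7 and 31.2 CPM in exposed livers and 26.3 and 20.02 CPM in controls at 9 months, and 14.4, 28.1 and 17.3 CPM in exposed livers and 15.8 and 10.8 CPM in controls at 3 months. Its partner Psmg2 ranged from 1.88 to 13.6 CPM in exposed livers at 9 months, the low value being exposed liver 1 with 12 counts.

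The constitutive cutting subunits were set beside their immunoproteasome counterparts as a share of their summed TPM within a library, which other abundant RNA does not affect. Over the 10 libraries, Psmb9 made up a median of 6.90% (0 to 14.4%) of Psmb9 and Psmb6, Psmb10 14.0% (0.785 to 21.5%) of Psmb10 and Psmb7, and Psmb8 21.2% (9.99 to 33.0%) of Psmb8 and Psmb5. At 9 months the share of Psmb10 was 16.7 ± 4.51% in exposed livers (SD, n = 3) and 16.9 ± 0.953% in controls (n = 2), and at 3 months 11.6 ± 4.26% in exposed livers and 3.64 ± 4.04% in controls. The share of Psmb8 was 23.8 ± 9.79% in exposed livers and 17.6 ± 5.97% in controls at 9 months, and 21.1 ± 11.5% in exposed livers and 26.5 ± 8.25% in controls at 3 months. The share of Psmb9 was 4.82 ± 4.29% in exposed livers and 2.30 ± 0.656% in controls at 9 months, and 12.2 ± 3.34% in exposed livers and 4.33 ± 6.13% in controls at 3 months. The mean share was thus lower at 9 months for Psmb9 and higher for Psmb10 in both arms, as a description with no test. Psmb9 itself was not lower in controls, with a mean of 1.86 CPM at 9 months and 1.41 CPM at 3 months. Psmb6, the other gene of that share, averaged 99.7 and 41.5 CPM there. In exposed livers Psmb9 averaged 3.33 CPM at 9 months and 5.95 CPM at 3 months, and Psmb6 88.0 and 55.3 CPM. Exposed livers and controls overlapped at 9 months for all 3 pairs, and at 3 months for Psmb9 and Psmb8. At 3 months the lowest exposed liver had a Psmb10 share of 6.89%, just above the 6.49% of control 3, and 3-month control 2 had 3 counts of Psmb10 and 0 of Psmb9. In edgeR's test 0 of the 3 immunoproteasome genes passed in any comparison, and for cadmium 0 had an unadjusted p under 0.05 at 9 months (2.25% of all genes) and 1 at 3 months (14.5% of all genes). For Psmb10 the log2 fold change of cadmium at 3 months was 1.96 ± 0.68 (adjusted p = 0.233), and 1.23 to 4.005 with each library left out, the highest and past the threshold without 3-month control 3 (adjusted p = 0.0118). Summed RNA of the 7 lymphocyte markers was 6.37 to 20.03 CPM and of the 8 Kupffer cell and macrophage markers 202 to 503 CPM over the libraries. At 9 months the lymphocyte markers had 12.7 to 18.3 CPM in exposed livers and 6.37 to 7.08 CPM in controls. In each library at 9 months 3 or 4 of these 7 markers had 0 counts, so the sum rests on few genes. The Kupffer cell and macrophage markers had 324 to 503 CPM in exposed livers and 236 to 306 CPM in controls at that time. At 3 months exposed livers and controls overlapped for both lists. The part of either list in these shares was not tested.

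**Figure D5:**
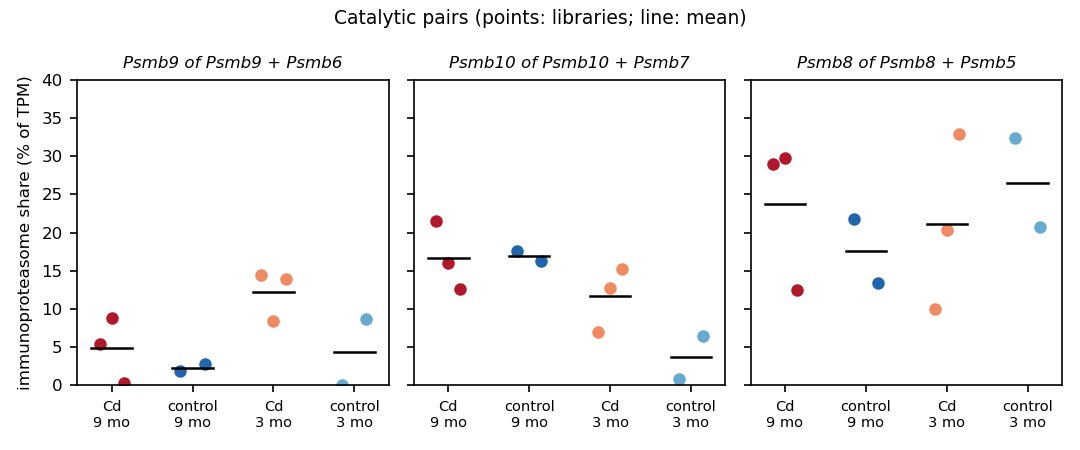
Share of the immunoproteasome subunit in the summed TPM of each catalytic pair, in percent, by library (points) with the group mean (line), for exposed and control livers at 9 and at 3 months. The Psmb10 share is 12.6% to 21.5% at 9 months, and 6.89% to 15.2% in exposed livers and 0.785% to 6.49% in controls at 3 months.

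Genes that act beside the proteasome gave few calls. Of 9 genes for maturation factors, ubiquitin receptors and deubiquitinases and of 8 genes of the NRF1 pathway, 0 passed in any comparison, and for cadmium 0 of these 17 had an unadjusted p under 0.05 at 9 months (2.25% of all genes) and 3 at 3 months (14.5% of all genes). The highest levels among them were those of Pomp, the 20S maturation factor (82.2 TPM), and Derl1, a membrane protein of endoplasmic reticulum protein export (58.7 TPM). Pomp had 82.2, 69.2 and 94.7 CPM in exposed livers and 84.5 and 73.3 CPM in controls at 9 months, and 101, 109 and 60.3 CPM in exposed livers and 32.5 and 54.1 CPM in controls at 3 months. The 3 exposed livers at 3 months lay above both controls (log2 fold change 1.06 ± 0.34, adjusted p = 0.195, and 0.74 to 1.48 with each library left out). It passed without 3-month control 3 (adjusted p = 0.0310). Nfe2l1, the gene of NRF1, had a log2 fold change for cadmium of -0.20 ± 0.31 at 9 months and 0.24 ± 0.32 at 3 months. Of 15 genes for ubiquitin, its activation and substrate extraction, Ubqln2, which encodes a shuttle between ubiquitin chains and the proteasome, was the 1 that passed. For cadmium 0 of the 15 had an unadjusted p under 0.05 at 9 months (2.25% of all genes) and 2, Ubqln2 and Ufd1l, at 3 months (14.5%). Ubqln2 was lower at 9 than at 3 months in controls, by 1.92 ± 0.39 on the log2 scale (adjusted p = 0.0352). In the mean of both arms it was lower by 1.11 ± 0.25 (adjusted p = 0.0371). Within exposed livers it was lower by 0.31 ± 0.31, and the groups overlapped. Its log2 fold change for cadmium was -1.06 ± 0.34 at 3 months (adjusted p = 0.196) and 0.56 ± 0.36 at 9 months. Its level was 28.6, 15.96 and 20.9 CPM in exposed livers and 17.0 and 12.6 CPM in controls at 9 months, and 30.1, 20.9 and 29.8 CPM in exposed livers and 51.4 and 60.6 CPM in controls at 3 months. The 3-month controls stood above every other library. The direction held under each of the 17 alternatives run, but the call in controls was lost in 11 of them and that in the mean of both arms in 12. With each of the 10 libraries left out in turn, the call held in 3 fits in controls (without 3-month control 2 or 3, or exposed liver 2 at 9 months) and in 2 in the mean of both arms (without 3-month control 2 or 3). The adjusted p ranged from 0.000992 to 0.458 in controls and from 0.00366 to 0.349 in the mean of both arms.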

How the data were processed

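Livers were profiled by m6A sequencing. The 10 input libraries among the 20 samples were analysed. Per the labels, libraries were grouped by exposure and time (3 exposed and 2 control libraries at each time). Raw counts and TPM per transcript were deposited by the authors in a table of the whole series. Columns were matched to samples by title, and 12 columns of 6 libraries that matched no sample were not used. Per the submitters' processing notes, bcl2fastq, TopHat2 2.0.13, MACS2 2.1.0.20151222 and the builds mm10, hg19 and rn6 are named, without roles. The counter, the annotation and the strand setting were not given in the sources used, so reads of overlapping antisense genes and of near-identical copies may be shared.

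For each gene the transcript with the highest count over the 10 libraries was kept. Of the 47 genes 28 had 1 transcript, and of 17 with several transcripts and at least 100 counts, 13 had a second transcript with over 90% of the first one's count. The kept transcript of Psmd2 and Psme2 is a non-coding record. Counts were fitted with edgeR 4.0.16 in R 4.3.3 (limma 3.58.1) after filterByExpr and TMM, as a model of 4 group means over all 10 libraries, with the two-sided quasi-likelihood test, Benjamini-Hochberg adjustment over all genes tested and a threshold of 0.05. The common dispersion was 0.309, with 6 residual degrees of freedom. Errors of fold changes are SE, other errors SD. A floor of 3 counts equalled 0.337 to 0.758 CPM, and it and the intervals of single libraries cover counting error only. The 5 comparisons of the design were exposed against control at each time, their difference, and 9 against 3 months in each arm; comparisons that share libraries are not independent. The 2 means over arms and over times were added after the values were seen. Tables were handled in Python 3.11.15 (pandas 2.3.3). The steps were tested on simulated data, for cadmium against control at 3 months. At the common dispersion they called 0% of genes with a simulated 2-fold change, 6.38% with 4-fold and 47.8% with 8-fold. At a lower simulated dispersion they called 61.7%, 91.5% and 100%.

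The proteasome genes, the related lists and the tests were chosen with earlier results of these data known. Values per library were given for genes past the threshold, the 5 largest changes with a mean of at least 1 CPM in each comparison, and the gene highest in TPM in each role; Psma1, Psma5, Psmd14, Psme2, Psmb10, Pomp and Ubqln2 were added after their values were seen. Of the related genes, Paaf1 was not matched. Alternatives were DESeq2 1.42.0, its size factors in edgeR, no filter, counts summed over transcripts, the replicate number as a block, limma voom with library weights, leaving out the pancreas-rich pair or each library in turn, and each time alone. DESeq2 gave no adjusted p for 36 genes in the comparison at 9 months and for 1127 in that at 3 months. Whether the replicate numbers pair the samples is not known. Deviations from the group means were correlated between same-numbered exposed and control libraries across 14067 genes. The values were -0.15 and -0.06 at 9 months and -0.00 and -0.01 at 3 months. The controls of a time deviate from their mean by equal amounts in opposite directions. The values within a time are therefore not independent, and they cannot exclude pairing or a shared batch by number.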

Additional observations from a re-analysis of the deposited data

How the results depend on the processing

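Of 40 fold changes of single genes under 700 alternatives in all, 628 kept their direction and their side of the threshold, 46 lost and 20 gained a call, and 6 turned their sign or became 0. Those 6 concerned 3 genes. For cadmium at 9 months, with each library left out, Psmc5 had -1.14 to 0.035 and Psmc1 -0.95 to 0.088, each highest without control 2, and the sparse gene Psma8 had 0 to 4.04, lowest without exposed liver 3. Psmc1 had 0.28 without the pancreas-rich pair. For 9 against 3 months in exposed livers, Psma8 had 0.30 with the replicate number as a block and 0.29 with limma voom. Of 21 counts and medians under 369 alternatives, 267 stayed within 1.5 times the value or within the spread between libraries.

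The number of proteasome genes called was 0 under each alternative for cadmium at 9 months and for 9 against 3 months in exposed livers. With an exposed liver left out the number was 0 in each comparison. Fits without a 3-month control left 1 control at that time. In some of them proteasome genes were called, and the share of all genes called rose as well. For 9 against 3 months in controls the number was 3 with DESeq2 (6.82%, against 9.57% of all genes) and 3 without a filter (6.38%, against 5.12%). In the mean of both arms it was 0 with counts summed over transcripts (0.224% of all genes) and 0 with the replicate block (0.32%). With limma voom it was 1, Psmc6 (2.22%, against 1.27%). The median over the proteasome genes was 0.12 to 0.44 for cadmium at 3 months, -0.19 to 0.064 at 9 months and -0.50 to -0.18 for their difference with each library left out, and 0.13 at 9 months and -0.13 for the difference without the pancreas-rich pair. For 9 against 3 months, with each library left out, it was 0.15 to 0.42 in controls, -0.13 to 0.10 in exposed livers and 0.040 to 0.18 in the mean of both arms, and for the mean cadmium effect 0.0064 to 0.19, lowest without exposed liver 1 at 3 months.

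Genes called among all genes tested were 7 with DESeq2, 76 without a filter, 3 with limma voom, 1 with that time alone, 1 without both 3-month controls and 0 to 1 with each library left out for cadmium at 9 months. For cadmium at 3 months they were 479 with DESeq2, 502 without a filter, 11 with summed transcripts, 3 with the replicate block, 2 with limma voom, 4 without the pancreas-rich pair, 0 with that time alone and 3 to 1247 with each library left out. For the difference they were 40 with DESeq2, 208 without a filter and 0 to 587 with each library left out. In controls they were 1238, 1073, 0, 1, 0 and 1 with DESeq2, no filter, summed transcripts, the replicate block, limma voom and no pancreas-rich pair, and 1 to 2339 with each library left out. In exposed livers they were 17 with DESeq2, 96 without a filter, 3 with limma voom, 6 without both 3-month controls and 0 to 11 with each library left out. In the mean of both arms they were 1224, 1122, 34, 45, 178 and 5 in the order used for controls, and 6 to 2427 with each library left out. For the mean cadmium effect they were 117 with DESeq2, 243 without a filter, 3 with summed transcripts, 3 without the pancreas-rich pair and 3 to 391 with each library left out.

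The cause of these shifts was not tested. With 2 or 3 libraries a group the intervals of most genes reached 2-fold at 3 months, and genes such as Psma8, Psmc3ip and Psmb9 had few counts in most libraries.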
